A study of Homo sapiens with 6 samples.

Results

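The EGF receptor family and its ligands were examined as 10 genes in HSC-4, an established cell line derived from oral squamous cell carcinoma. They were chosen by name as the receptors *EGFR*, *ERBB2*, *ERBB3* and *ERBB4* and the ligands *AREG*, *EREG*, *HBEGF*, *TGFA*, *BTC* and *EPGN*. All 10 were found by Ensembl identifier among the 58884 genes of the deposited count tables. RNA was sequenced from 3 libraries of cells given 50 μM DAPT for 24 h and from 3 control libraries. DAPT inhibits γ-secretase, the protease that cuts Notch receptors within the membrane and frees their intracellular domain. The methods describe the controls as cells given the vehicle DMSO for 24 h, whereas their count columns carry the letters GM, so whether the vehicle was present in every control library cannot be told apart from these labels. All libraries share 1 cell line grown in serum-containing medium. Nothing in the labels says that the 3 libraries of a group came from separate cultures, so p-values measure the spread between these libraries, which may be technical.

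The members of this family form a short-range signaling system of epithelia. The ligands are made as membrane-anchored precursors and are released by sheddases, mainly ADAM17, after which they bind EGFR or ERBB4. AREG, TGFA and EPGN act mainly through EGFR, whereas HBEGF, BTC and EREG can bind both EGFR and ERBB4. ERBB2 has no known soluble ligand and serves as the preferred partner of the other receptors, and ERBB3 binds neuregulins but has little kinase activity of its own. Activated receptors signal through RAS and ERK and through PI3-kinase and AKT, and in stratified epithelium EGFR favors growth over differentiation. ERBB4 is, like the Notch receptors, a substrate of γ-secretase after its ectodomain has been shed.

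Total counts per library lay between 12276313 and 16317672, so that 3 reads, taken as the smallest signal, corresponded to 0.187 to 0.248 CPM, which divides each count by the size of its library. This floor covers counting error only. The 9 squamous epithelial markers were above 3 reads in every library, except *KRT14* in DAPT replicate 2, and summed to 6690 to 7034 CPM in control and 4686 to 4820 CPM in DAPT libraries, and *KRT14*, which marks basal cells of such epithelium, was at 2.98 to 3.54 CPM in control and at most 0.715 CPM with DAPT. Of these 9 markers 6 were lower with DAPT, *CDH1* was higher (log2 fold change 0.27, adjusted p = 0.000139 by edgeR), and *DSG3* (-0.06) and *COL17A1* (-0.10) did not pass. Of all tested genes, 18.0% were lower and 17.2% were higher. Control replicate 1 stood apart. Its 6 fibroblast markers summed to 552.5 CPM, against 49.9 to 58.3 CPM in the other 5 libraries, and the collagen gene *COL1A2* was at 215 CPM there and at no more than 2.02 CPM elsewhere. Values without control replicate 1 are therefore also given for the 9 tested members and for the genes that passed and are described library by library. The leukocyte marker *CD3E* had no reads in any library, and the 5 leukocyte markers summed to 8.92 to 12.9 CPM, nearly all from *CD14*. The 4 endothelial markers summed to 0.650 to 1.49 CPM. As a check of the treatment, the Notch target genes *HES1*, *HES2*, *HES4* and *HEY1* were lower with DAPT, with log2 fold changes of -0.77, -2.45, -1.48 and -1.98, and their groups did not overlap. Groups without overlap were also found in 46.3% of all tested genes.

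The ligand genes *EPGN*, *EREG*, *AREG* and *BTC* lie together on the long arm of chromosome 4, within 486 kb of GRCh38 (chr4:74308473-74794523). *EPGN*, *EREG* and *AREG* are on the plus strand and *BTC* is on the minus strand. To show how the starts of these neighbours differ, the 250 bases before the RefSeq start are printed for *EREG*, *AREG* and *BTC*, with *HBEGF* beside them because it was, with *BTC*, the other ligand gene that rose with DAPT. The windows are chr4:74364895-74365144 (plus) for *EREG*, chr4:74444886-74445135 (plus) for *AREG*, chr4:74794524-74794773 (minus) for *BTC* and chr5:140346604-140346853 (minus) for *HBEGF*, all from RefSeq on GRCh38.p14 and written 5′ to 3′ on the strand of the gene. Capitals mark matches, on either strand, to the core of the RBPJ site that Notch complexes bind (TGGGAA), the AP-1 site (TGANTCA), the cAMP response element (TGACGTCA) and the TATA box (TATAAA).
EREG: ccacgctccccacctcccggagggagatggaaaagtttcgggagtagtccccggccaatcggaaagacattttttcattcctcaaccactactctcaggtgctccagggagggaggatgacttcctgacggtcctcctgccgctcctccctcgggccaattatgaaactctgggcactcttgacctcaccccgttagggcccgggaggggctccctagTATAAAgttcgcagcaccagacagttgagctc
AREG: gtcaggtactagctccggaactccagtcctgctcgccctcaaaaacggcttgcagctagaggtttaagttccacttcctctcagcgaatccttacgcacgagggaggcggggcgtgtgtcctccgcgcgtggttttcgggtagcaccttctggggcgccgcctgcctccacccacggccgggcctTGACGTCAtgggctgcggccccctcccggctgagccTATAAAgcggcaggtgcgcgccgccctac
BTC: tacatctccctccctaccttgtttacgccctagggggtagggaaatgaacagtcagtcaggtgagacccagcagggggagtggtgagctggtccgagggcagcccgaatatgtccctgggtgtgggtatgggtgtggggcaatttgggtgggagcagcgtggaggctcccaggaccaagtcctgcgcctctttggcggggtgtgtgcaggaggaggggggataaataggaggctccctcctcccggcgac
HBEGF: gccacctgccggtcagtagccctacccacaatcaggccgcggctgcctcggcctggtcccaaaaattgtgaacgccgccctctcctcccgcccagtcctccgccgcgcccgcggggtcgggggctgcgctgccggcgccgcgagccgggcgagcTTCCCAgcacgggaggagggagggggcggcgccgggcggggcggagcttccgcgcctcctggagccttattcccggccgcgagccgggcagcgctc

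The *EREG* and *AREG* windows each held a TATA box, ending 26 and 23 bases before the start, and *AREG* held a cAMP response element ending 57 bases before it. The *HBEGF* window held an RBPJ core ending 90 bases before the start, and the *BTC* window held none of the 4 motifs in these letters. Near its end the *BTC* window did hold the letters gataaata, which the exact search for TATAAA did not count. The RBPJ core was not particular to a gene that rose, as it also occurred in 1 of the 2 windows listed for *TGFA* and in 1 of the 2 for *EGFR*. That *EGFR* window lay inside the gene, downstream of its annotated start, and also held AP-1 sites and TATA boxes. The other *EGFR* window, directly before the annotated start, held none of the 4 motifs. The 2 windows of *TGFA* likewise lay inside that gene, downstream of its annotated start. The *EPGN* window held a TATA box ending 23 bases before the start, and the *ERBB2* window held an AP-1 site. Such matches are common or rare to different degrees. Among 35116 promoter windows of the same length in the reference, 20.8% held the RBPJ core, 10.7% the TATA box, 6.57% the AP-1 site and 1.65% the cAMP response element. Promoter windows were matched for 9 of the 10 members, with none for *ERBB3*. A match in letters is a description and not evidence of binding.

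The members spanned a wide range of levels per length, given as RPKM, the CPM value divided by the exon length in kilobases. *EGFR* led by far, at 77.2 ± 1.06 RPKM in control (SD, n = 3), a level 4.70 times that of the next member. *AREG* was second at 16.4 ± 0.178 RPKM, followed by *TGFA* at 13.2 ± 0.684 and *ERBB2* at 13.1 ± 0.790 RPKM (SD, n = 3 each). The control ranges of *TGFA* and *ERBB2* overlapped, so these neighbours were not separated by their spread. *ERBB3* was at 7.35 ± 0.263 RPKM, *HBEGF* at 3.35 ± 0.200, *BTC* at 1.69 ± 0.195 and *EREG* at 1.33 ± 0.109 RPKM (SD, n = 3 each), with no overlap between neighbours in this order. *EPGN* at 0.209 ± 0.112 RPKM and *ERBB4* at 0.0875 ± 0.0232 RPKM closed the order and overlapped each other. The order depends on the exon lengths used, whose uncertainty the SD does not cover. In control CPM, *TGFA* (mean 64.7) stood above *AREG* (27.0), and *EREG* (7.59) above *BTC* (4.48).

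**Figure D1:**
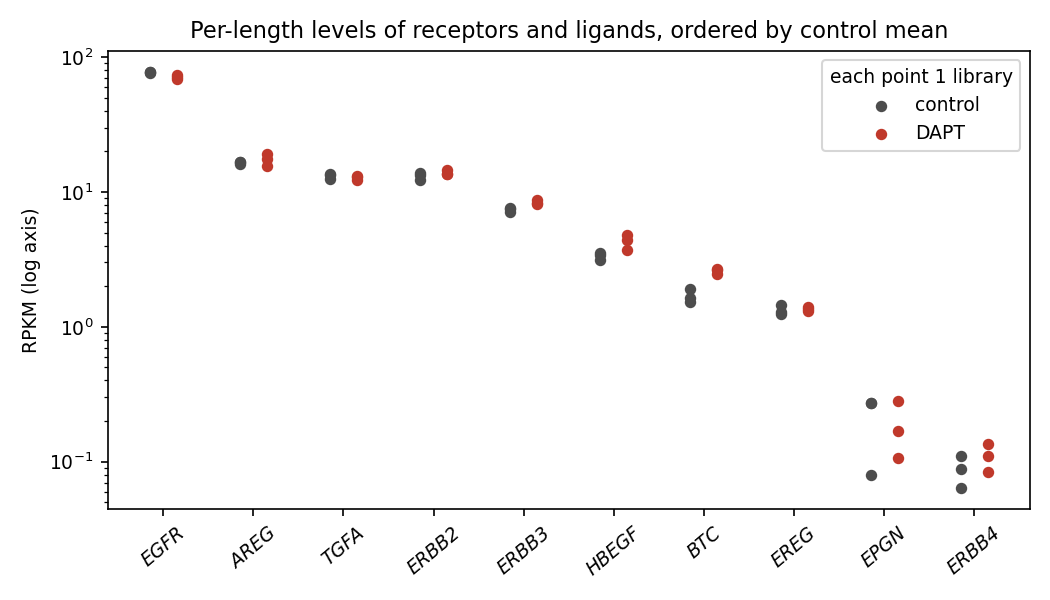
Level per length of the 10 members, in RPKM on a log axis, with 1 point per library (gray control, red DAPT), ordered by the control mean. EGFR sits near 77.2 RPKM in control, well above AREG at 16.4 RPKM, and EPGN and ERBB4 lie lowest.

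With DAPT the order was the same except that *ERBB2*, at 13.9 ± 0.547 RPKM, stood above *TGFA*, at 12.8 ± 0.474 RPKM (SD, n = 3 each), without overlap between them. Among the receptors, *EGFR* made up 78.2% to 79.7% of the summed RPKM in control libraries and 75.9% to 76.3% in DAPT libraries. The share of *ERBB3* was 7.18% to 7.73% in control and 8.96% to 9.07% with DAPT. Among the ligands, *AREG* made up 44.7% to 46.9% in control and 41.8% to 47.9% with DAPT, so its ranges overlapped, whereas *BTC* made up 4.20% to 5.15% in control and 6.65% to 6.75% with DAPT. The summed level of the receptors was 97.8 ± 0.473 RPKM in control and 93.2 ± 3.06 RPKM with DAPT, and that of the ligands was 36.2 ± 0.850 and 38.6 ± 1.47 RPKM (SD, n = 3 each). These sums and shares are descriptions that rest on the same exon lengths, and no test was run on them.

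Between DAPT and control libraries, *BTC*, *HBEGF* and *ERBB3* rose, *EGFR* fell slightly, and *ERBB2*, *ERBB4*, *AREG*, *EREG* and *TGFA* did not pass the test. The changes were small, from a log2 fold change of -0.12 for *EGFR* to 0.63 for *BTC*. *EPGN* did not pass the filter on low counts and was not tested. At a threshold of 0.05 on the adjusted p of edgeR's quasi-likelihood test, corrected by Benjamini-Hochberg over 15001 genes, 3 of the 9 tested members were higher, where 17.2% of all tested genes were higher, and 1 was lower, where 18.0% were lower. In either direction 35.2% of all tested genes passed. The groups did not overlap in 4 of the 9 members, where 46.3% of all tested genes had groups that did not overlap. With 9 genes, these counts were not read as different from the background. Without control replicate 1, there were again 3 higher genes and 1 lower gene. In the median, the 9 members had a log2 fold change of 0.09 and all tested genes one of 0.01.

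**Figure D2:**
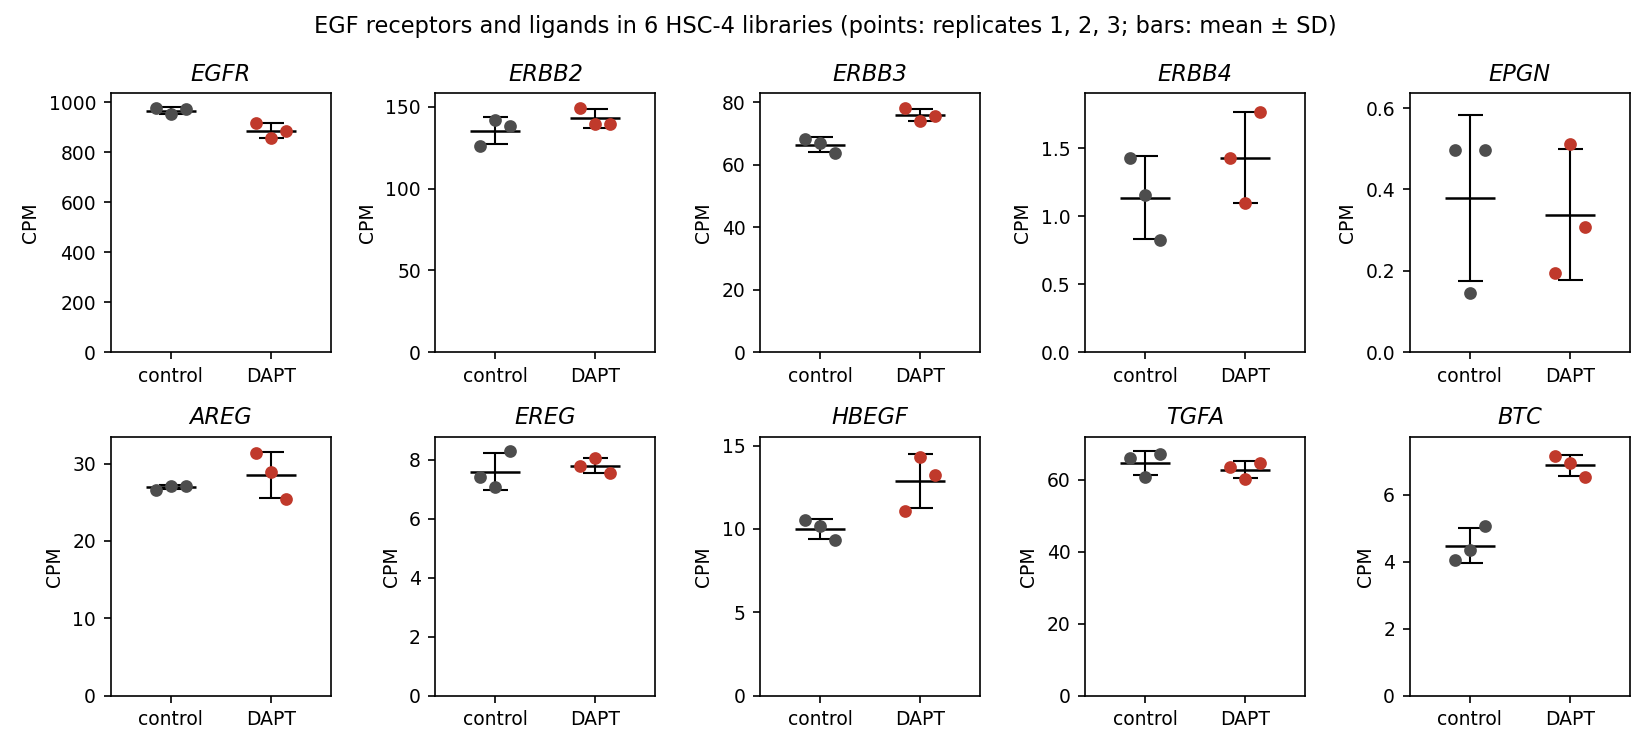
Level of each member in CPM (TMM-normalized, linear axes from 0) in the 3 control (gray) and 3 DAPT (red) libraries, with the mean and SD as black lines. In BTC, HBEGF and ERBB3 every DAPT library lies above every control library, in EGFR every DAPT library lies below, and in the other 6 genes the groups overlap.

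*EGFR* (ENSG00000146648, chr7:55019017-55211628) encodes the receptor that all of the member ligands can bind. It was at 977, 952 and 973 CPM in control and at 917, 859 and 886 CPM in DAPT libraries. All DAPT libraries lay below all control libraries, by a gap smaller than the range of the DAPT group. The log2 fold change was -0.12 (standard error, SE, 0.05, adjusted p = 0.0428 by edgeR), or 0.917-fold with a 95% interval of 0.858 to 0.981. This call was close to the threshold and was lost when any of control replicate 2, control replicate 3, DAPT replicate 2 or DAPT replicate 3 was left out, with log2 fold changes of -0.14, -0.13, -0.10 and -0.12 and adjusted p of 0.0746, 0.112, 0.185 and 0.131 by edgeR. Scaling by library size alone gave -0.08 (adjusted p = 0.192 by edgeR), and without control replicate 1 it was -0.12 (adjusted p = 0.0413 by edgeR). Its antisense neighbour *EGFR-AS1*, which covers 1.49% of the exonic bases of *EGFR* on the other strand, held 1 to 6 reads per library.

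*ERBB3* (ENSG00000065361, chr12:56076799-56103505), the neuregulin receptor, was at 68.4, 67.1 and 63.8 CPM in control and at 78.1, 74.1 and 75.4 CPM in DAPT libraries. Every DAPT library lay above every control library, with control replicate 3 the lowest of all 6. The log2 fold change was 0.19 (SE 0.06, adjusted p = 0.00997 by edgeR), or 1.14-fold (95% interval 1.05 to 1.24). Without control replicate 3 it was 0.16 (adjusted p = 0.0776 by edgeR), the sole library whose omission ended the call, and without control replicate 1 it was 0.21 (adjusted p = 0.00382).

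*ERBB2* (ENSG00000141736, chr17:39687914-39730426), the partner receptor without a ligand of its own, was at 126, 142 and 138 CPM in control and at 149.5, 139.7 and 139.8 CPM with DAPT. The groups overlapped, with control replicate 1 the lowest library and DAPT replicate 1 the highest. The log2 fold change of 0.08 did not pass (SE 0.05, adjusted p = 0.27 by edgeR), and its 95% interval allowed between 0.977-fold and 1.14-fold. Without control replicate 1 it was 0.03 (adjusted p = 0.649 by edgeR), and without DAPT replicate 1 it was 0.05. *ERBB4* (ENSG00000178568, chr2:211375717-212538841), the receptor that γ-secretase itself can cleave, was barely expressed, with 23, 16 and 10 reads in control and 22, 15 and 23 reads in DAPT libraries. Its log2 fold change of 0.29 (SE 0.30, adjusted p = 0.477 by edgeR) had a 95% interval from 0.796-fold to 1.89-fold, so at this depth even sizeable changes of *ERBB4* were not detectable. Without control replicate 1 it was 0.51 (adjusted p = 0.281 by edgeR), and it was 0.13 without either control replicate 3 or DAPT replicate 3.

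**Figure D3:**
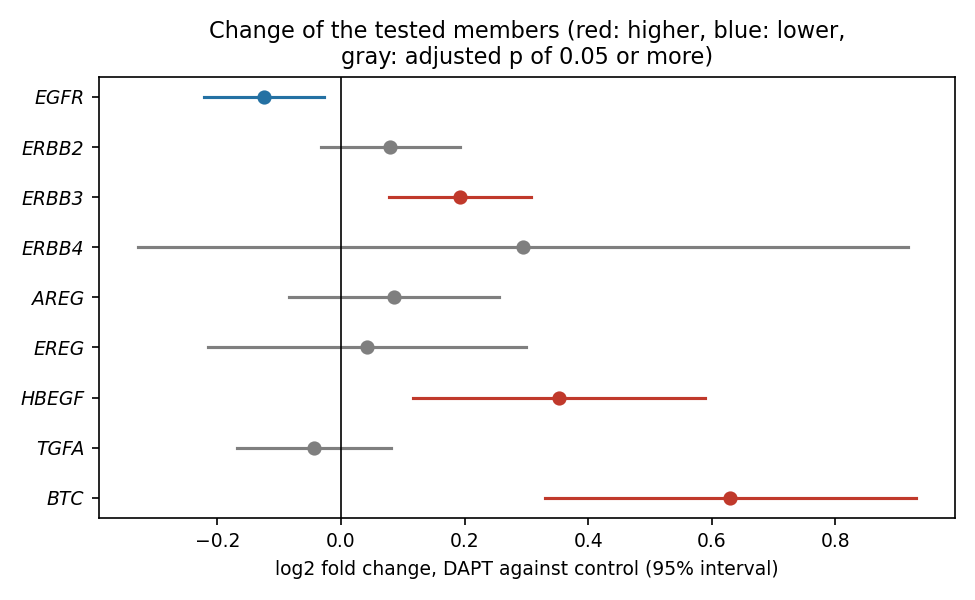
Log2 fold change of the 9 tested members, DAPT against control, with 95% intervals from the edgeR fit. BTC (0.63), HBEGF (0.35) and ERBB3 (0.19) are drawn in red as higher, EGFR (-0.12) in blue as lower, and the intervals of the 5 gray genes include 0.

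*BTC* (ENSG00000174808, chr4:74744759-74794523) encodes betacellulin and showed the largest change of the 9 tested members. It was at 4.05, 4.33 and 5.05 CPM in control and at 7.15, 6.95 and 6.53 CPM in DAPT libraries, from 60 to 65 reads in control and 85 to 110 reads with DAPT. The groups were well separated, and the DAPT libraries lay close together. The log2 fold change was 0.63 (SE 0.14, adjusted p = 0.00178 by edgeR), or 1.55-fold (95% interval 1.26 to 1.91). *BTC* passed under each of the 14 alternatives tried, with log2 fold changes between 0.56 and 0.71 and adjusted p between 0.000815 and 0.0236. The lowest of these values, 0.56 (adjusted p = 0.00679 by edgeR), was that without control replicate 1.

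*HBEGF* (ENSG00000113070, chr5:140332843-140346603), the heparin-binding ligand, was at 10.5, 10.2 and 9.36 CPM in control and at 11.1, 14.3 and 13.2 CPM in DAPT libraries. All DAPT libraries were higher, but DAPT replicate 1 lay much nearer to the controls than to the other 2. The log2 fold change was 0.35 (SE 0.11, adjusted p = 0.02 by edgeR), or 1.28-fold (95% interval 1.08 to 1.505). DESeq2 gave 0.36 (adjusted p = 0.0947), and the call was also lost without control replicate 3 (0.30, adjusted p = 0.0815 by edgeR), DAPT replicate 2 (0.27, adjusted p = 0.122) or DAPT replicate 3 (0.34, adjusted p = 0.0657). Without control replicate 1 it was 0.39 (adjusted p = 0.0169 by edgeR).

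The ligands with the highest levels did not pass the test. *AREG* (ENSG00000109321, chr4:74445136-74455005), which encodes amphiregulin, was at 26.7, 27.2 and 27.2 CPM in control and at 31.4, 28.9 and 25.4 CPM with DAPT. The controls nearly coincided, and the DAPT libraries lay on both sides of them. The log2 fold change was 0.09 (SE 0.08, adjusted p = 0.448 by edgeR), with a 95% interval from 0.943-fold to 1.19-fold. It was 0.08 without control replicate 1, 0.01 without DAPT replicate 1 and 0.16 without DAPT replicate 3, none of them passing.

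*TGFA* (ENSG00000163235, chr2:70447284-70554193), transforming growth factor alpha, was at 66.1, 60.9 and 67.2 CPM in control and at 63.5, 60.2 and 64.7 CPM with DAPT. Its groups overlapped, and the 95% interval ran from 0.890-fold to 1.06-fold around a log2 fold change of -0.04 (SE 0.06, adjusted p = 0.611 by edgeR). *EREG* (ENSG00000124882, chr4:74365145-74388749), epiregulin, was at 7.41, 7.08 and 8.28 CPM in control and at 7.79, 8.04 and 7.53 CPM with DAPT. All DAPT libraries of *EREG* fell inside the range of the controls, and its log2 fold change of 0.04 (SE 0.12, adjusted p = 0.82 by edgeR) had a 95% interval from 0.861-fold to 1.23-fold. The values of *TGFA* and *EREG* lay so near 0 that scaling by library size alone turned the sign of the first (0.0031) and leaving out control replicate 2 that of the second (-0.0069). Their values were -0.02 and 0.03 without control replicate 1. *EPGN* (ENSG00000182585, chr4:74308473-74315307), epigen, had 8, 2 and 6 reads in control and 3, 7 and 4 reads in DAPT libraries, at or near the floor of 3 reads, and no fold is given.

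On chromosome 4, the ligand genes beside *BTC* that could be tested did not pass. *EREG* and *AREG* had log2 fold changes of 0.04 and 0.09, and *MTHFD2L*, a folate enzyme gene next to *EPGN*, had one of -0.05 (adjusted p = 0.766 by edgeR). The difference between *BTC* and its neighbours was not itself tested. The unnamed genes ENSG00000250532 and ENSG00000249942, which lie between the ligand genes on the minus strand, held 0 reads and at most 1 read per library. Levels per length in control, in order along the locus, were 1.04 RPKM for *MTHFD2L*, 0.209 for *EPGN*, 1.33 for *EREG*, 16.4 for *AREG* and 1.69 for *BTC*.

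**Figure D4:**
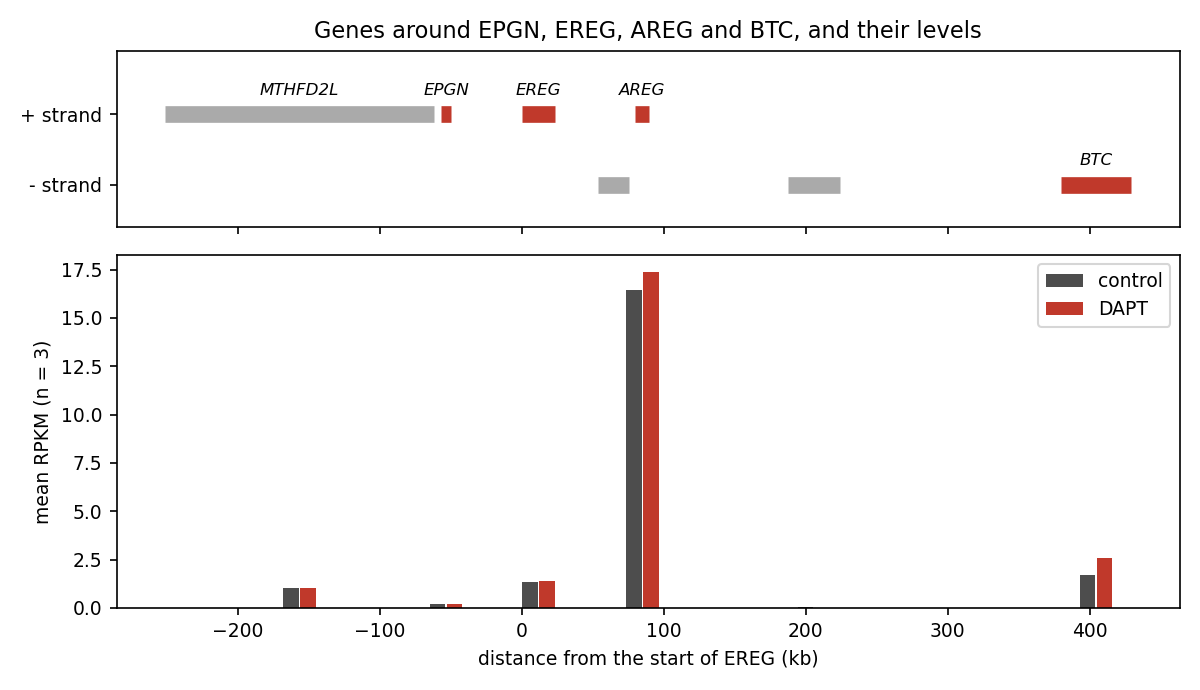
Top, genes around the chromosome 4 ligand genes by strand, in kb from the start of EREG, with the members in red and other genes in gray. Bottom, mean RPKM of each gene in control (gray) and DAPT (red) libraries, in which AREG stands highest at 16.4 and 17.4 RPKM and BTC goes from 1.69 to 2.59 RPKM.

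The remaining EGF-family ligands include the neuregulins, which bind ERBB3 and ERBB4. Of these 5 genes 4 were tested, 2 were lower with DAPT and 0 were higher, against 18.0% and 17.2% of all tested genes. *NRG1*, neuregulin 1, was at 22.6, 21.1 and 20.6 CPM in control and at 14.2, 12.8 and 13.1 CPM with DAPT. This fall, a log2 fold change of -0.68 (SE 0.09, adjusted p = 3.95e-06 by edgeR), was seen in all DAPT libraries and was -0.64 without control replicate 1. *NRG4*, which binds ERBB4, fell from 17.3, 19.8 and 20.8 CPM to 16.2, 15.5 and 16.4 CPM, with a log2 fold change of -0.26 (adjusted p = 0.0311 by edgeR). The *NRG4* call was lost when any library other than control replicate 1 was left out (log2 fold changes from -0.21 to -0.28, adjusted p from 0.0611 to 0.135 by edgeR), and without control replicate 1 its log2 fold change was -0.34. *EGF* itself was at 0.911 to 1.23 CPM over all libraries and *NRG2* at 1.12 to 2.49 CPM, neither passing, and *NRG3* had no reads. The median log2 fold change of the 4 tested genes was -0.08.

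Of 6 genes of the machinery that sheds the ligands, 1 was higher and 1 was lower, against 17.2% and 18.0% of all tested genes. *ADAM10* was higher (log2 fold change 0.13, adjusted p = 0.0416 by edgeR) and *RHBDF2*, an inactive rhomboid that carries ADAM17 to the cell surface, was lower (-0.23, adjusted p = 0.0183). *ADAM10*, a sheddase of *BTC* precursors and of Notch receptors, was at 470, 454 and 444 CPM in control and at 511, 494 and 487 CPM with DAPT. The *ADAM10* call held only when control replicate 1 was the library left out (0.15), and ranged from 0.10 to 0.14 without any of the others (adjusted p from 0.0699 to 0.197 by edgeR). That of *RHBDF2* was lost without control replicate 3 (-0.21), DAPT replicate 2 (-0.23) or DAPT replicate 3 (-0.18). *ADAM17* was at 109 to 114 CPM in control and at 102 to 107 CPM with DAPT, a log2 fold change of -0.09 that did not pass (adjusted p = 0.163 by edgeR). The median of the 6 genes was -0.11.

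Of 12 genes that inhibit the receptors or govern their turnover, 4 were higher and 3 were lower, against 17.2% and 18.0% of all tested genes, with a median of -0.04. The largest change was that of *CBLC*, a ubiquitin ligase of the CBL family found in epithelia, at 20.1, 22.2 and 21.1 CPM in control and at 14.7, 12.8 and 12.3 CPM with DAPT. Its log2 fold change was -0.66 (SE 0.09, adjusted p = 1.05e-05 by edgeR). *CBLB*, of the same family, went the other way (0.37, adjusted p = 0.00615, and 0.26 with adjusted p = 0.0625 without DAPT replicate 1), and *CBL* was at -0.01 (adjusted p = 0.948). *ERRFI1*, an inducible inhibitor of the EGFR kinase, fell from 64.1, 65.7 and 64.8 CPM to 53.6, 54.3 and 53.3 CPM, without overlap and with little spread in either group (log2 fold change -0.27, SE 0.06, adjusted p = 0.000916 by edgeR). *RNF41*, a ubiquitin ligase that lowers ERBB3 protein, rose from 31.8, 33.9 and 31.5 CPM to 39.2, 41.1 and 44.3 CPM (log2 fold change 0.35, SE 0.07, adjusted p = 0.000714 by edgeR), and *USP8*, a deubiquitinase that stabilizes RNF41, rose with a log2 fold change of 0.20 (adjusted p = 0.00426). *LRIG2* was the fourth higher gene (0.21) and *SOCS5* the third lower one (-0.20), while *LRIG1*, a membrane inhibitor of these receptors, had a value of -0.27 that did not pass (adjusted p = 0.119 by edgeR). The *LRIG2* call was lost without control replicate 2 (0.17), control replicate 3 (0.22), DAPT replicate 1 (0.21) or DAPT replicate 2 (0.18), and that of *SOCS5* was lost without any library other than control replicate 2, its value without control replicate 1 being -0.16 (adjusted p = 0.0794 by edgeR). *CBLC* was at -0.70, *ERRFI1* at -0.28 and *RNF41* at 0.34 on the log2 scale without control replicate 1, and all 3 passed.

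Of 25 adaptor and kinase genes downstream of the receptors, 24 were tested, 5 were higher and 2 were lower, against 17.2% and 18.0% of all tested genes, with a median of 0.0023. The 25th, *PIK3R2*, had at most 5 reads per library, and 88.2% of its exonic bases are shared with another annotated gene on the same strand, where reads were not counted. *SHC1*, an adaptor of the activated receptor, was at 211, 219 and 226 CPM in control and at 178, 173 and 178 CPM with DAPT (log2 fold change -0.31, SE 0.05, adjusted p = 4.05e-05 by edgeR). *PLCG1*, a phospholipase bound by EGFR, fell by 0.21 on the log2 scale (adjusted p = 0.00217). *SOS1*, an exchange factor for RAS, rose with a log2 fold change of 0.25 (adjusted p = 0.00195 by edgeR) and the kinase gene *BRAF* with one of 0.33 (adjusted p = 0.00102), while *SOS2* (0.21), *RASA1* (0.17) and *STAT3* (0.14) rose by smaller amounts. Leaving out single libraries ended the last 3 calls in 5, 3 and 4 of 6 fits, among them those without control replicate 2 (0.14, 0.14 and 0.15) and without DAPT replicate 3 (0.22, 0.14 and 0.10). Without control replicate 1, the counts of this list were 7 higher and 5 lower, and *SHC1* was at -0.33.

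Genes that respond to ERK activity included 7 lower and 2 higher genes among 17 tested, where 18.0% and 17.2% of all tested genes were lower and higher. Their median log2 fold change was -0.25, against 0.01 for all tested genes. *MYC* was at 67.5, 72.4 and 72.8 CPM in control and at 41.9, 40.8 and 41.8 CPM with DAPT, a log2 fold change of -0.77 (adjusted p = 2.7e-09 by edgeR), and *CCND1*, *ETV4*, *DUSP6*, *FOSL1*, *DUSP5* and *IER3* were the other lower genes. *EGR1*, an immediate early gene of the same pathway, rose from 28.2, 24.8 and 28.2 CPM to 53.5, 47.5 and 46.1 CPM, with a log2 fold change of 0.86 (SE 0.08, adjusted p = 2.47e-08 by edgeR). *SPRY1*, a feedback inhibitor, was the other higher gene (0.47, adjusted p = 0.0224), a call lost without control replicate 3 (0.40), DAPT replicate 1 (0.43) or DAPT replicate 3 (0.41). *DUSP6*, an ERK phosphatase, had a log2 fold change of -0.53 (adjusted p = 0.0154 by edgeR) that no longer passed without control replicate 1 (-0.38, adjusted p = 0.0887), DAPT replicate 2 (-0.42) or DAPT replicate 3 (-0.50). The calls of *SPRY1* and *DUSP6* were also lost with DESeq2 (adjusted p = 0.131 and 0.0913). *MYC* was at -0.81 and *EGR1* at 0.89 without control replicate 1. Several of these genes also answer to other pathways. The list was written from general knowledge, but with earlier results of these data known.

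**Figure D5:**
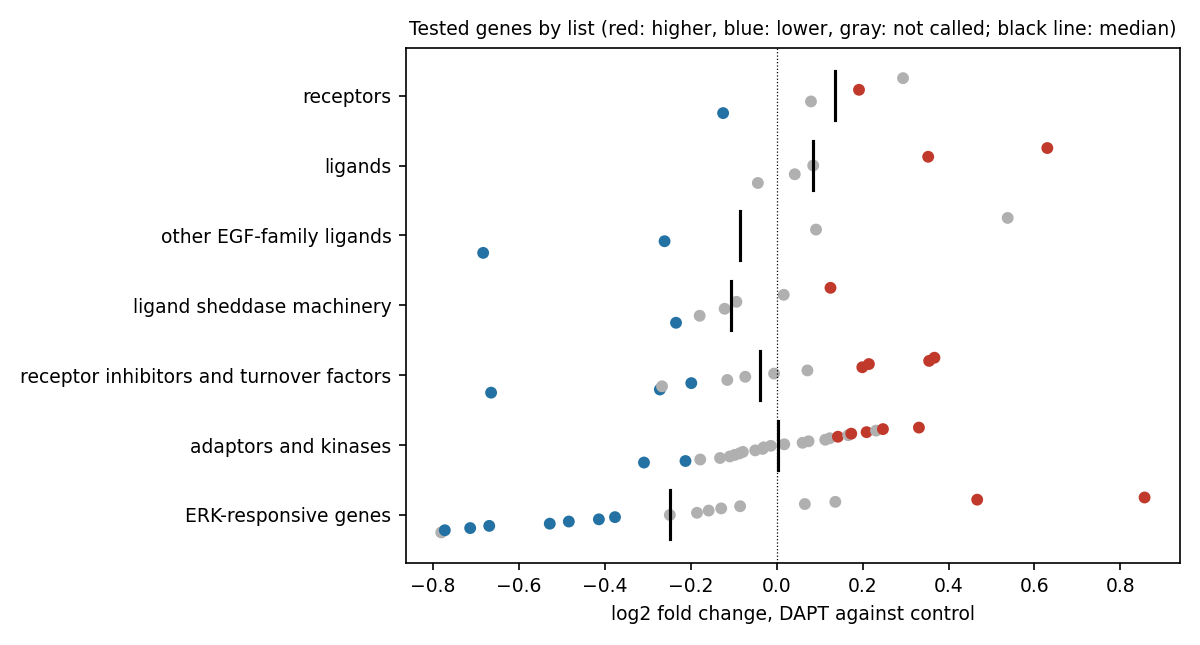
Log2 fold change of each tested gene, DAPT against control, by list (red higher, blue lower, gray not passing, black line the median). The members stay between -0.12 and 0.63, and the ERK-responsive genes between -0.78 and 0.86 with a median of -0.25. The low end of the latter is SPRY4, with 8 to 20 reads per library, which did not pass (adjusted p = 0.0924 by edgeR).

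For the receptor and the ligand with the smallest adjusted p, genes with the most similar pattern over the 6 libraries were listed among those with a mean of at least 10 CPM. For *ERBB3* these were *ARFGEF3* (Pearson's r = 0.998), *GARS1* (0.996) and *RIMOC1* (0.996). For *BTC* they were *ABITRAM* (0.996), *DYRK1A* (0.996) and *TMEM267* (0.995). These correlations rest on 6 libraries that share the contrast between the groups, and 10139 or 10140 genes were searched.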

How the data were processed

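RNA of HSC-4 cells was sequenced as single-end reads from strand-specific mRNA libraries, 3 with 50 μM DAPT for 24 h and 3 controls, grouped by the sample titles. Per the file headers, the authors used featureCounts 1.6.3 to count reads in the sense direction of each gene against an Ensembl GRCh38 annotation (release 96 by its file name), after trimming with Trim Galore and mapping with HISAT2, and deposited raw read counts per gene. By that tool's defaults, reads mapping to several places or overlapping several genes were not counted, which lowers genes with near-identical copies. The labels name HTSeq, which the headers do not. Symbols were matched by identifier for 58472 of 58884 genes.

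Genes were filtered by group (minimum count 10) and tested over all 15001 remaining genes with edgeR 4.0.16 in R 4.3.3 (TMM normalization, robust quasi-likelihood fit, treatment as the sole term), with two-sided p-values adjusted by Benjamini-Hochberg and a threshold of 0.05. The paper names edgeR for its comparison, whereas the labels name DESeq2. Standard errors and 95% intervals were derived from the test statistic. CPM and RPKM use TMM-scaled library sizes, the latter with the exon lengths in the count tables. The procedure was tested on simulated counts with changes larger than that of any member, so the simulation does not bear on calls as small as those of the members. Total counts of 12276313 to 16317672 limit precision for genes with few reads. Exact permutation of 3 against 3 libraries cannot reach 0.05, and none was run. Alternatives were DESeq2 1.42.0, limma-voom (limma 3.58.1), RLE factors, library size alone, no filter, a non-robust fit, a minimum of 10 counts in all libraries, the replicate number as a block, TPM, and each library left out in turn.

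The members and lists were chosen with earlier results of these data known. The text names the 10 members, list genes that passed with the largest changes first and those needed to say that they did not pass, 4 Notch target genes, and the 3 genes of at least 10 mean CPM with the highest Pearson's r to a receptor and to a ligand. *KRT14*, *CDH1*, *DSG3*, *COL17A1*, *COL1A2*, *CD3E*, *CD14*, *EGFR-AS1* and *MTHFD2L* were named after their values were seen.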

Additional observations from a re-analysis of the deposited data

How the results depend on the processing

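The direction of *BTC*, *HBEGF*, *ERBB3*, *EGFR*, *ERBB2* and *AREG* was the same under all 14 alternatives, and *BTC* passed under each of them. *TGFA* turned to 0.0031 with library size alone and *EREG* to -0.0069 without control replicate 2, neither passing, and *EREG* ranged from -0.0069 to 0.098 when single libraries were left out. No member was lower with library size alone, without the low-count filter or in the fit that was not robust (0 in each, against 1), since *EGFR* then missed the threshold, at -0.08 (adjusted p = 0.192), -0.12 (0.0824) and -0.12 (0.0572) by edgeR. Leaving out a library gave 1 to 3 members higher and 0 to 1 lower. With library size alone, 61.5% of the genes that passed were higher, against 48.7% with TMM, and all tested genes had a median of 0.06 against 0.01 on the log2 scale.

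Of the other EGF-family ligands, 1 was lower with DESeq2 and with library size alone, and 1 to 2 without a library. Of the sheddase genes, 0 were higher with RLE factors or without a filter, 0 were lower with DESeq2 or library size alone, and without a library 0 to 1 were higher and 0 to 2 lower. Of the adaptors and kinases, 3 were higher with DESeq2 and 8 with library size alone, and without a library 2 to 7 were higher and 2 to 5 lower. Of the ERK-responsive genes, 1 was higher and 6 were lower with DESeq2, and without a library 1 to 2 were higher and 6 to 7 lower. Of the receptor inhibitors and turnover factors, 3 were higher and 2 lower with DESeq2, and 2 to 5 were higher without a library. Among the genes of these lists, DESeq2 did not pass *NRG4*, *RHBDF2*, *LRIG2*, *SOCS5*, *SOS2*, *RASA1*, *SPRY1* and *DUSP6* (adjusted p from 0.0539 to 0.135). The cause of these differences was not tested.

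The labels do not say whether libraries with the same replicate number share anything beyond that number, such as a culture or batch. Total counts fell from replicate 1 to replicate 3 in each group. The differences of libraries from their group means correlated, within a number, at 0.0208, 0.0334 and 0.003, and 4 of 6 libraries correlated best with their own number. With the replicate block, 3 members were higher and 1 lower, as without it, and 5295 of all genes passed against 5281. Within a library RPKM and TPM differ by a constant, so the order of members in it is the same on both scales. The groups of 3 libraries were not screened for outlying values by Dixon's test. *EPGN* and *ERBB4* are limited by depth.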
